A study of Mus musculus with 4 samples.

Results

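Mouse genes of cholesterol and fatty acid synthesis were followed across 4 microarrays, each with RNA from 1 group of embryonic stem cells. The set was a list of 36 gene symbols set by pathway membership, with earlier results of these data known: 19 enzymes of the sterol pathway, 6 genes of sterol regulation and transport, and 11 genes of fatty acid synthesis. Probe sets paired with a single gene were found for 33 of the 36, among 22180 genes with a value. Acat2 had no probe set under its symbol, and those of Idi1 and Scd2 were each shared with another gene. These 3 thus have no expression value here, and Acat2 and Idi1 enter only the promoter counts. A gene was kept for counts and medians when at least 1 of the 4 arrays read 4.84 or more on the log2 scale, the median of all named probe sets. Of the 33, 29 passed that filter, among 12042 genes in all: 15 sterol enzymes, 5 regulators and transport genes, and 9 fatty acid genes. Ggps1, Hsd17b7, Insig2 and Me1 did not. Stard4 was just inside, with a highest value of 4.86, and Hsd17b7 just outside, at 4.76.

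All cells were Prdm14 knockout mouse embryonic stem cells, grown in medium with 2 inhibitors and LIF (2i + LIF) over feeder cells of the STO fibroblast line. They expressed sea urchin PRDM14 with sea urchin CBFA2T (below, the CBFA2T array), sea urchin PRDM14 alone, mouse PRDM14, or an empty vector. PRDM14 is a zinc finger protein of pluripotent and germ cells, and CBFA2T proteins are co-repressors. Each group had 1 array, all from strip 2. The labels do not say whether a group was 1 clone or which vector was used. With no replicates there is no error estimate, test or p-value, and precision is limited by the number of arrays. Differences are in log2 units of the deposited RMA values, and sizes past 1.5-fold (0.585) or 2-fold (1) are counted as descriptions.

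The mouse Prdm14 probe set read 5.53 on the CBFA2T array, 5.77 with sea urchin PRDM14, 5.57 with mouse PRDM14 and 5.71 with the empty vector, so it did not check the labels, and each group name means the array labelled with it. All 12 embryonic stem cell markers examined were at or above the filter value on every array. Tdgf1, a pluripotency marker, was the only marker past 2-fold, at 7.58 on the CBFA2T array and 8.74 with sea urchin PRDM14. Of 17 fibroblast markers with a value, 12 reached it on the CBFA2T array and 11 on each of the other 3. Of the defining collagen genes, Col1a1 lay between 5.71 and 5.99 and Col1a2 between 5.85 and 6.05. Lum (2.76 to 3.12), Dcn, Postn, S100a4 and Thbs1 were under the filter value on every array. Signal of some feeder cell genes, but not of all those listed, was thus present on every array.

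Cholesterol is built from acetyl-CoA by way of mevalonate, farnesyl diphosphate, squalene and lanosterol. The transcription factors SREBP1 and SREBP2, encoded by Srebf1 and Srebf2, drive these enzymes and those of fatty acid synthesis. When sterols are low, SCAP carries SREBP from the endoplasmic reticulum to the Golgi for cleavage. When sterols are high, INSIG proteins hold SCAP back, and transcription of the sterol enzymes drops. SREBP2 acts mainly on sterol genes and SREBP1 mainly on fatty acid genes.

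On the CBFA2T array most sterol enzymes and the 3 measured fatty acid desaturases had lower values than on the empty vector array, while Fdft1, Fasn and Acly had higher ones. The sterol enzyme median was -0.26, with 11 of 15 below 0 and a range of -0.65 to 0.46. Over all genes past the filter the median was 0.01, with 48.4% below 0. The fatty acid median was -0.03, with 6 of 9 below 0, and the regulator median -0.09, with 3 of 5 below 0. That regulator median is the value of Stard4, which passed the filter only through the sea urchin PRDM14 array. The fatty acid median was -0.18 under a stricter filter and also without chromosome 11. The regulator median was -0.24 under that filter, -0.033 with a filter on the mean and -0.16 without chromosome 11. No member was 2-fold apart, where 0.208% of all genes were. Nsdhl and Scd1, 2 of 29 members, were past 1.5-fold, both lower, where 0.822% of all genes were past it in either direction. Fewer cells that express a gene and less of its RNA per cell cannot be told apart in these bulk samples.

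Set against sea urchin PRDM14 alone, the CBFA2T array again had lower sterol values. The sterol enzyme median was -0.14, with 12 of 15 below 0, beside -0.00 for all genes. With no filter on dim genes, which adds Ggps1 and Hsd17b7, this median was -0.08. The regulator median was -0.11. Its genes include Stard4 at -0.14, a direction set by the filter, and the median was -0.07 with a filter on the mean. The fatty acid median was 0.01, but -0.14 under a stricter filter and also without chromosome 11, so its direction is not settled. None of the 29 members was past 2-fold, beside 0.183% of all genes. Cyp51 and Fads1 were past 1.5-fold, both lower, beside 0.515% of all genes. This comparison shares the CBFA2T array with the one before it, and the values of that array enter both.

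By the sterol enzyme median, the sea urchin PRDM14 and mouse PRDM14 arrays were closer to the empty vector than the CBFA2T array was. With sea urchin PRDM14 the sterol enzyme median was -0.05, with 8 of 15 below 0, beside 0.01 and 48.4% for all genes. The median was 0.05 for regulators, the value of Stard4, and 0.03 for fatty acid genes. Stard4 passed the filter only through the sea urchin PRDM14 array, so the direction of its difference is set by the filter. The regulator median was -0.024 under a stricter filter, and the fatty acid median 0.22 under that filter and -0.046 without chromosome 11, so neither direction is settled. With mouse PRDM14 the sterol enzyme median was -0.06, with 9 of 15 below 0, beside -0.01 and 51.5% for all genes. That of regulators was 0.10 and that of fatty acid genes 0.11. The regulator median was 0.035 with no filter and without chromosome 11. None of the 29 members was past 2-fold or 1.5-fold in either comparison. Over all genes, 0.0332% were past 2-fold and 0.498% past 1.5-fold with sea urchin PRDM14, and 0.083% and 0.457% with mouse PRDM14.

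Against mouse PRDM14, the CBFA2T array had a sterol enzyme median of -0.20, with 13 of 15 below 0, where 47.0% of all genes were. Scd1 and Nsdhl were past 1.5-fold, both lower, beside 0.739% of all genes, and 0 of 29 members were past 2-fold, beside 0.183%. The array with sea urchin PRDM14 alone had a sterol enzyme median of -0.06 against mouse PRDM14, with 9 of 15 below 0, where 46.5% of all genes were. None of the 29 members was past 1.5-fold (0.515% of all genes) or 2-fold (0.0581%) in that comparison.

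**Figure D1:**
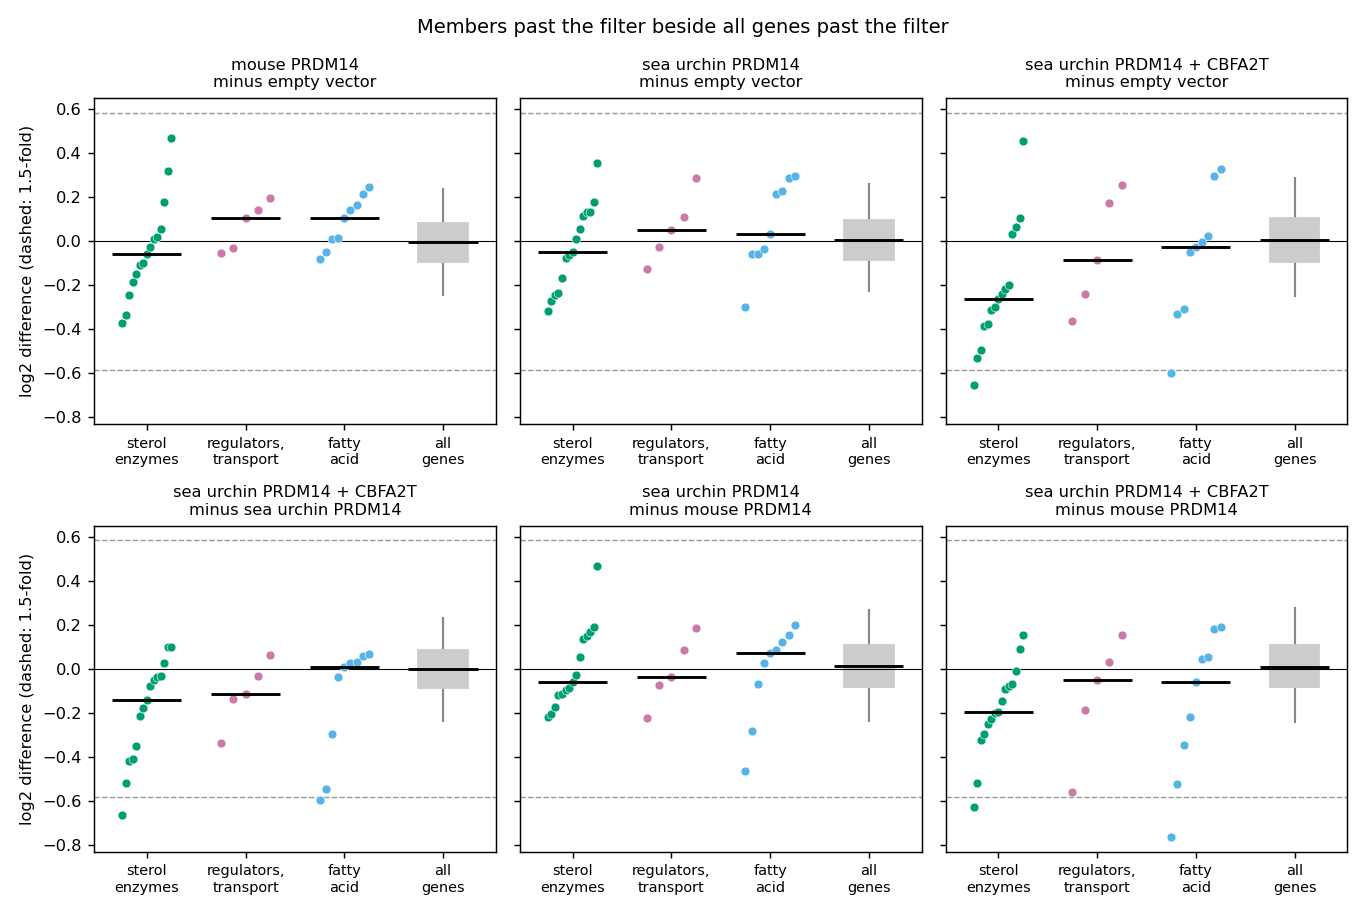
Log2 differences (vertical axis) of the members past the filter in the 6 comparisons, with 1 point per gene, a black line at each group's median, and dashed lines at 1.5-fold. For all 12042 genes past the filter the box spans the percentiles 25 to 75 and the line the percentiles 5 to 95. Sterol enzymes have the lowest median in all 6 panels. It is -0.26, -0.14 and -0.20 in the 3 panels with CBFA2T. Without CBFA2T it is -0.06 and -0.05 for mouse and sea urchin PRDM14 minus the empty vector, and -0.06 for sea urchin minus mouse PRDM14.

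The CBFA2T array gave the lowest of the 4 values for 10 of 15 sterol enzymes, 3 of 5 regulators and 3 of 9 fatty acid genes, beside 24.3% of all genes past the filter. Stard4, among those regulators, passed the filter only through the sea urchin PRDM14 array (4.86). That it was lower on the CBFA2T array (4.73) than there is thus set by the filter. The highest value lay on the CBFA2T array for 0 of the 15 sterol enzymes, beside 27.3% of all genes past the filter. The sea urchin PRDM14 array was the lowest for 0 of 15, beside 22.4% of all genes. The mouse PRDM14 array was the lowest for 1 (27.9% of all genes) and the empty vector array for 4 (25.3%). The spread of a sterol enzyme over the 4 arrays, highest minus lowest, had a median of 0.35, beside 0.19 for all genes past the filter. That of the fatty acid genes was 0.30 and ran from 0.07 for Elovl6 to 0.77 for Scd1.

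**Figure D2:**
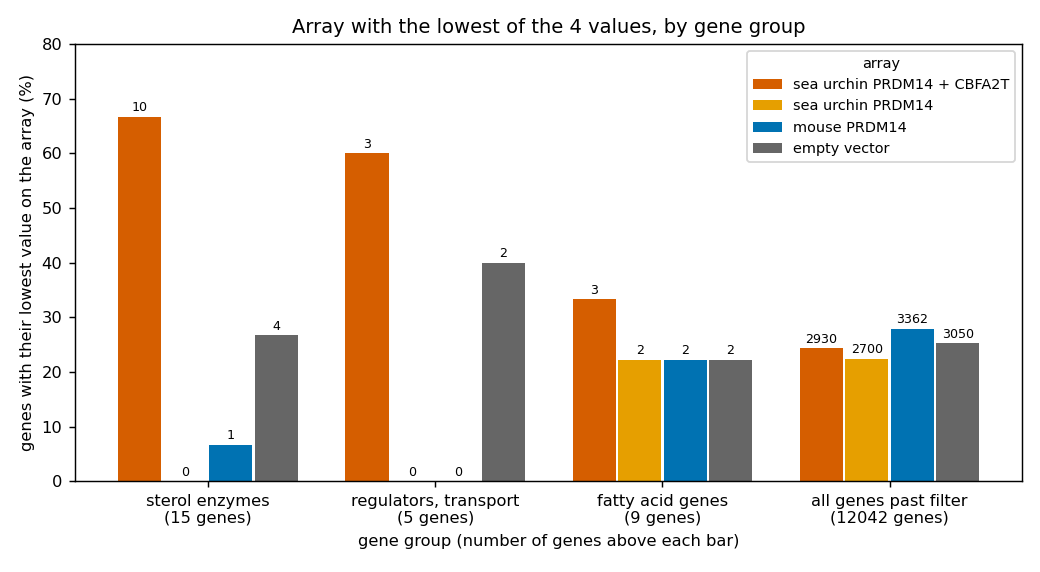
Share of genes in each group (vertical axis, percent) whose lowest value lay on each of the 4 arrays, with the number of genes above each bar. The CBFA2T array holds the lowest value for 10 of 15 sterol enzymes and for 2930 of all 12042 genes.

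In the mevalonate part of the pathway, Hmgcs1 and Fdps were low on the CBFA2T array. Hmgcs1 makes HMG-CoA, the precursor of mevalonate. It read 7.51 on the CBFA2T array, 7.93 with sea urchin PRDM14, 8.03 with mouse PRDM14 and 8.01 with the empty vector. The other 3 arrays lay within 0.10 of one another for this gene, and the CBFA2T array was 0.42 below the nearest. Its level on the CBFA2T array was 70.8% of that with the empty vector.

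Fdps, which makes farnesyl diphosphate, read 6.00 on the CBFA2T array, 6.52 with sea urchin PRDM14, 6.33 with mouse PRDM14 and 6.39 with the empty vector. The difference of the CBFA2T array was -0.39 from the empty vector and -0.52 from sea urchin PRDM14 alone. The array with sea urchin PRDM14 alone was the highest of the 4 for Fdps.

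Mvk and Mvd had another pattern. Mvk, the kinase that phosphorylates mevalonate, read 5.81 on the CBFA2T array, 5.72 with sea urchin PRDM14, 5.66 with mouse PRDM14 and 6.03 with the empty vector. Mvd, which makes isopentenyl diphosphate, read 6.31 on the CBFA2T array, 6.35 with sea urchin PRDM14, 6.38 with mouse PRDM14 and 6.63 with the empty vector. For both genes the empty vector array was the highest and the 3 PRDM14 arrays lay together below it. Mvk was lowest with mouse PRDM14, and Mvd on the CBFA2T array. Pmvk, the second mevalonate kinase, read 6.47 on the CBFA2T array, 6.45 with sea urchin PRDM14, 6.62 with mouse PRDM14 and 6.44 with the empty vector, so mouse PRDM14 stood highest. Ggps1, the geranylgeranyl diphosphate synthase gene, was dim, at 3.68 to 3.72.

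Fdft1, squalene synthase, catalyses the first step used for sterols alone. It read 7.20 on the CBFA2T array, 7.10 with sea urchin PRDM14, 7.21 with mouse PRDM14 and 6.74 with the empty vector. The 3 PRDM14 arrays lay within 0.11 of one another and at least 0.36 above the empty vector, the reverse of Mvk and Mvd. These 3 differences share the empty vector array and are not separate readings of it. Only 59 of the 12042 genes past the filter, Fdft1 included, had a difference as high as its 0.47 with mouse PRDM14.

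The next enzymes toward lanosterol were lowest on the CBFA2T array. Sqle, squalene epoxidase, read 6.43 on that array, 6.64 with sea urchin PRDM14, 6.51 with mouse PRDM14 and 6.69 with the empty vector. Lss, which closes the ring system to lanosterol, read 5.43 on the CBFA2T array, 5.78 with sea urchin PRDM14, 5.63 with mouse PRDM14 and 5.73 with the empty vector. For Lss the sea urchin PRDM14 and empty vector arrays were close, and the CBFA2T array was 0.30 below the empty vector.

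All 7 measured enzymes after lanosterol that passed the filter had lower values on the CBFA2T array than with sea urchin PRDM14 alone, by 0.03 to 0.67, where the median of all genes was -0.00. Cyp51 removes a methyl group from lanosterol. It read 4.85 on the CBFA2T array, 5.51 with sea urchin PRDM14, 5.04 with mouse PRDM14 and 5.38 with the empty vector. The mouse PRDM14 array was thus low as well, 0.34 below the empty vector, and the sea urchin PRDM14 array was 0.13 above it. Only 14 of the 12042 genes, Cyp51 included, lay as low in the CBFA2T against sea urchin PRDM14 comparison as its -0.67. The CBFA2T value of 4.85 is close to the filter value of 4.84, where background pulls a fold toward 1.

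Nsdhl, an X-linked enzyme that works on the same methyl groups as Msmo1, had the lowest sterol enzyme difference from the empty vector. It read 5.68 on the CBFA2T array, 6.09 with sea urchin PRDM14, 6.31 with mouse PRDM14 and 6.34 with the empty vector. Its level on the CBFA2T array was 63.5% of that with the empty vector (difference -0.65), and 26 of the 12042 genes, Nsdhl included, lay as low. The sea urchin PRDM14 array was between the CBFA2T array and the other 2. The 300 chromosome X genes past the filter had a median of 0.01 in the same comparison.

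Msmo1, a sterol methyl oxidase, read 6.24 on the CBFA2T array, 6.42 with sea urchin PRDM14, 6.53 with mouse PRDM14 and 6.48 with the empty vector. Tm7sf2, a sterol reductase, read 5.71 on the CBFA2T array, 5.85 with sea urchin PRDM14, 5.94 with mouse PRDM14 and 6.09 with the empty vector. Sc5d, a sterol desaturase, read 5.10 on the CBFA2T array, 5.13 with sea urchin PRDM14, 5.19 with mouse PRDM14 and 5.30 with the empty vector. For Tm7sf2 and Sc5d, as for Mvd and Nsdhl, the order of the 4 arrays was the same, with the CBFA2T array lowest and the empty vector highest. Ebp, a sterol isomerase, read 6.23 on the CBFA2T array, 6.31 with sea urchin PRDM14, 6.14 with mouse PRDM14 and 6.13 with the empty vector. Ebp and the reductase gene Dhcr7, which acts at the end of the pathway, were lowest with the empty vector. Dhcr7 read 5.76 on the CBFA2T array, 5.81 with sea urchin PRDM14, 6.01 with mouse PRDM14 and 5.69 with the empty vector. Hsd17b7, below the filter on all arrays, was 0.21 higher on the CBFA2T array than with sea urchin PRDM14 alone, against the direction of the 7.

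**Figure D3:**
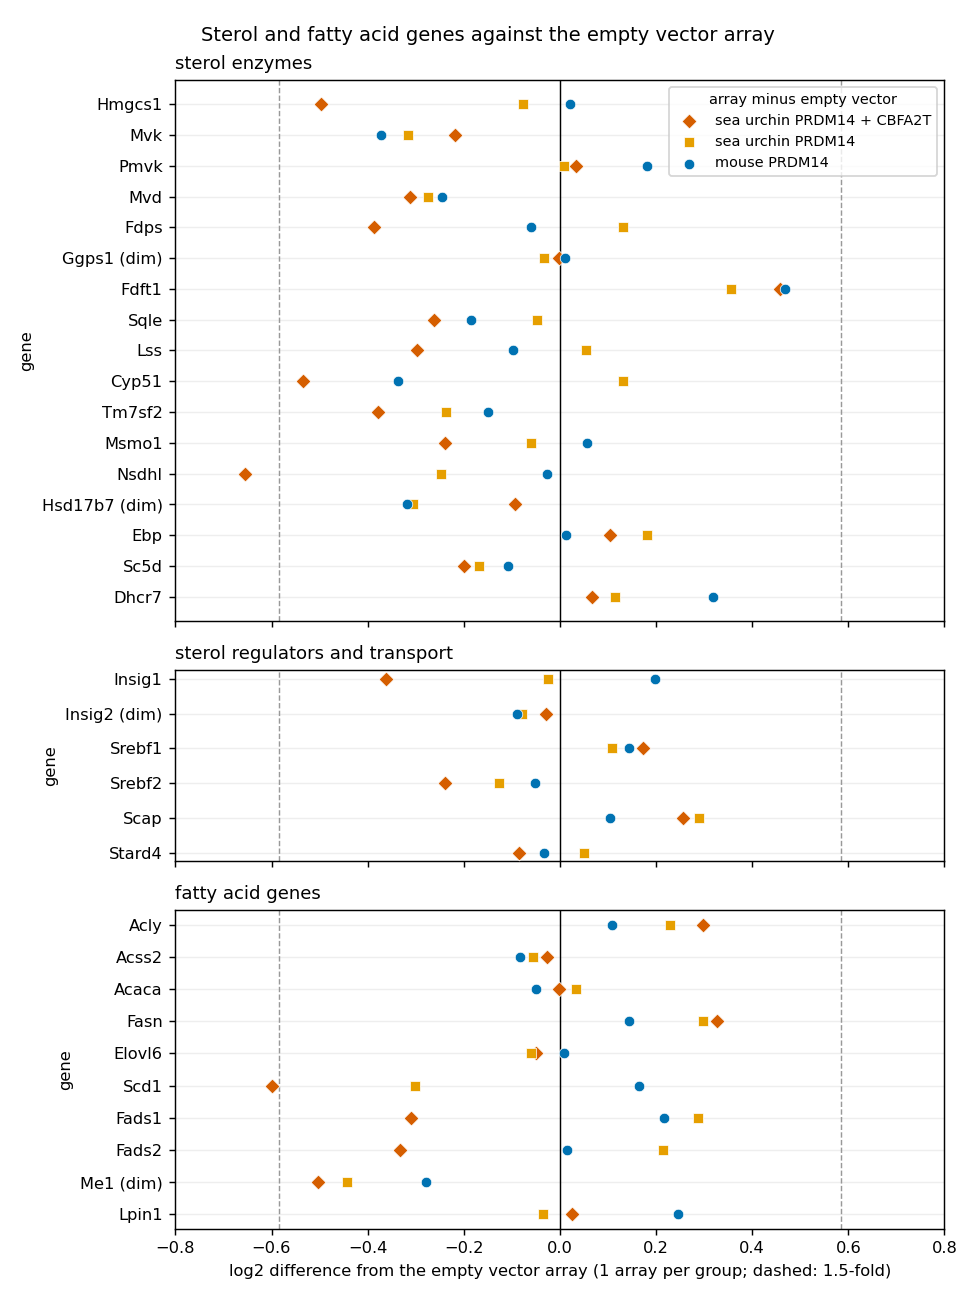
Log2 difference from the empty vector array (horizontal axis) for the 33 members with a value, with 1 marker for each of the other 3 arrays, dashed lines at 1.5-fold, and genes under the filter marked dim. Nsdhl (-0.65) and Scd1 (-0.60) on the CBFA2T array are past the lower dashed line, and Fdft1 lies to the right of 0 on all 3 arrays.

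Among the regulators, Insig1 was low on the CBFA2T array. Insig1 retains SCAP in the endoplasmic reticulum and is itself a target of SREBP. It read 7.0 on the CBFA2T array, 7.34 with sea urchin PRDM14, 7.56 with mouse PRDM14 and 7.36 with the empty vector. The CBFA2T array was 0.34 below the sea urchin PRDM14 array and 0.56 below the mouse PRDM14 array, which was the highest. Its paralog Insig2 was dim, at 4.15 to 4.23.

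Srebf2 read 6.83 on the CBFA2T array, 6.94 with sea urchin PRDM14, 7.01 with mouse PRDM14 and 7.07 with the empty vector. This is the order of Mvd, Nsdhl, Tm7sf2 and Sc5d. Srebf1 read 5.94 on the CBFA2T array, 5.87 with sea urchin PRDM14, 5.91 with mouse PRDM14 and 5.77 with the empty vector, so it was highest where Srebf2 was lowest, within a span of 0.17. Stard4, a cholesterol carrier, stayed between 4.73 and 4.86. Scap read 5.44 on the CBFA2T array, 5.47 with sea urchin PRDM14, 5.28 with mouse PRDM14 and 5.18 with the empty vector. A dimmer probe set of Scap disagreed, with a difference of -0.05 instead of 0.29 between the sea urchin PRDM14 and empty vector arrays.

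**Figure D4:**
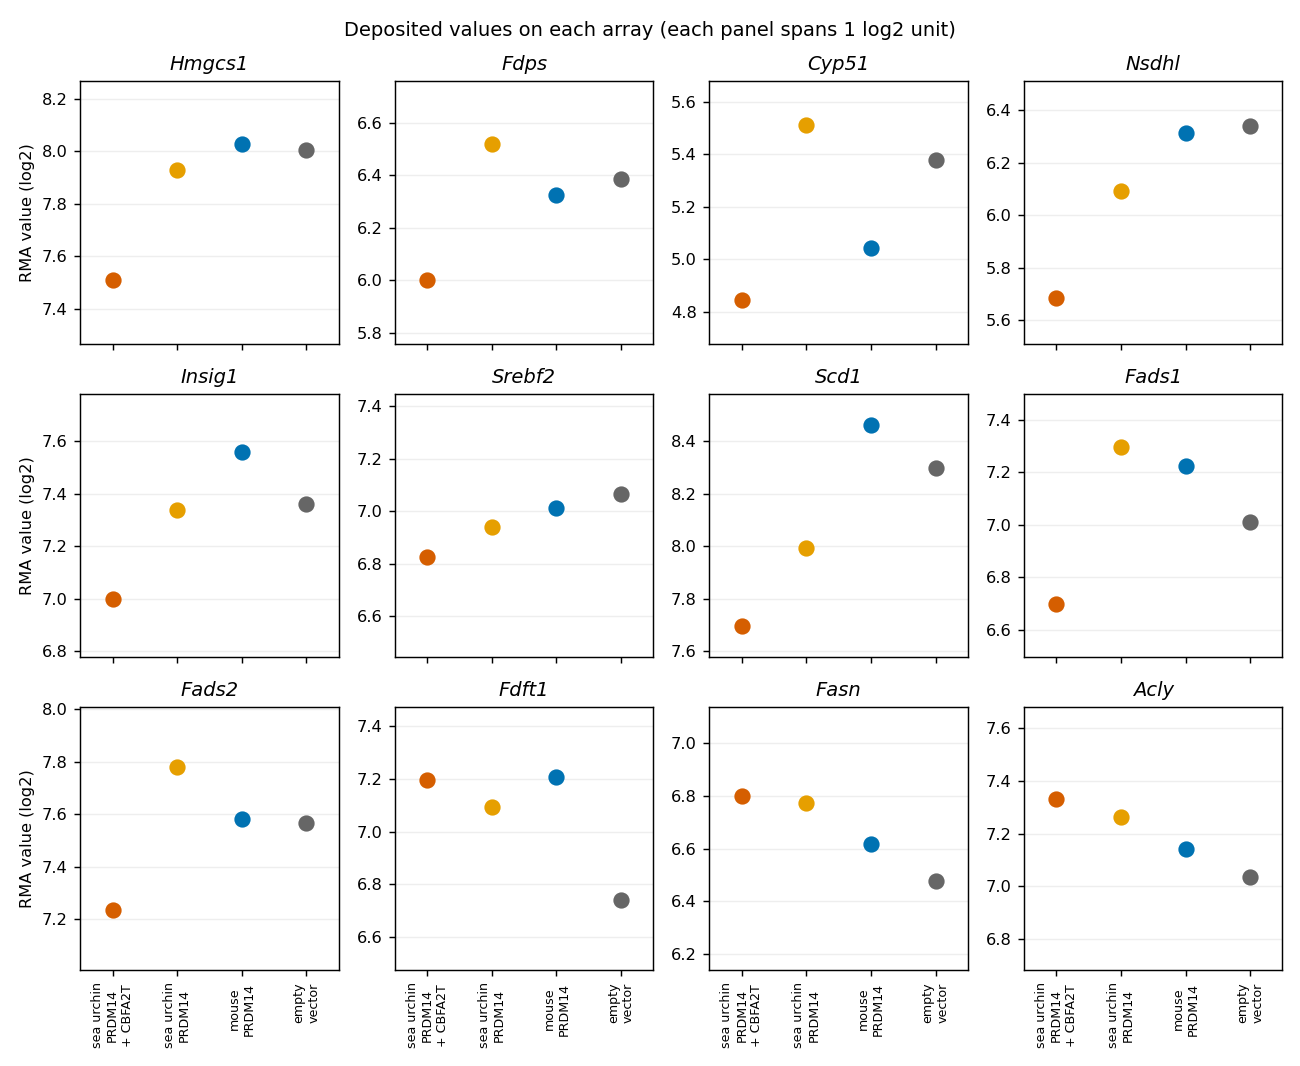
Deposited log2 values (vertical axis, 1 log2 unit per panel) of 12 members on the 4 arrays, with 1 point per array. Hmgcs1, Fdps, Cyp51, Nsdhl, Insig1, Srebf2, Scd1, Fads1 and Fads2 are lowest on the CBFA2T array, and Fdft1, Fasn and Acly are lowest on the empty vector array.

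Among the fatty acid genes, the 3 desaturases were lowest on the CBFA2T array, where 24.3% of all genes past the filter were. The chain-building enzymes were not. Scd1, which makes monounsaturated fatty acids, read 7.70 on the CBFA2T array, 7.99 with sea urchin PRDM14, 8.46 with mouse PRDM14 and 8.30 with the empty vector. Both sea urchin arrays were below the other 2, and the CBFA2T array was the lowest. Its level there was 66.0% of that with the empty vector and 58.8% of that with mouse PRDM14 (differences -0.60 and -0.77). With sea urchin PRDM14 alone, its difference from mouse PRDM14 was -0.47, the lowest of any member in that comparison, where Cyp51 was the highest at 0.47.

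Fads1 and Fads2 make polyunsaturated fatty acids. Fads1 read 6.70 on the CBFA2T array, 7.30 with sea urchin PRDM14, 7.22 with mouse PRDM14 and 7.01 with the empty vector. Fads2 read 7.23 on the CBFA2T array, 7.78 with sea urchin PRDM14, 7.58 with mouse PRDM14 and 7.57 with the empty vector. Unlike Scd1, both were highest with sea urchin PRDM14 alone, and the CBFA2T array was 0.60 and 0.55 below that array. All 3 desaturase genes lie on chromosome 19, whose 423 genes past the filter had a median of 0.00 between the CBFA2T array and the sea urchin PRDM14 array.

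Fasn, the synthase that builds palmitate, read 6.80 on the CBFA2T array, 6.77 with sea urchin PRDM14, 6.62 with mouse PRDM14 and 6.47 with the empty vector. Acly, which makes cytosolic acetyl-CoA from citrate, read 7.33 on the CBFA2T array, 7.26 with sea urchin PRDM14, 7.14 with mouse PRDM14 and 7.03 with the empty vector. Both were lowest with the empty vector, and the 2 sea urchin arrays were the highest. Both genes lie on chromosome 11, whose 1067 genes past the filter had medians of 0.07 with CBFA2T and 0.06 with sea urchin PRDM14, and -0.00 with mouse PRDM14, each minus the empty vector. The part of this chromosome-wide shift in the differences of Fasn (0.33, 0.30 and 0.14) and Acly (0.30, 0.23 and 0.11) was not tested.

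Acaca, also of chromosome 11, makes malonyl-CoA and spanned only 5.27 to 5.35. The acetate-activating enzyme gene Acss2 spanned 5.41 to 5.49, and the elongase gene Elovl6 8.30 to 8.37. Lpin1, a phosphatidate phosphatase, read 5.37 on the CBFA2T array, 5.31 with sea urchin PRDM14, 5.59 with mouse PRDM14 and 5.34 with the empty vector, and the mouse PRDM14 array stood apart as the highest. Me1, a source of NADPH for lipid synthesis, was dim, at 4.01 on the CBFA2T array, 4.07 with sea urchin PRDM14, 4.23 with mouse PRDM14 and 4.51 with the empty vector.

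The bases before the start of 5 genes are shown because Hmgcs1, Cyp51, Nsdhl and Insig1 were lowest together on the CBFA2T array and Fasn was not. Each is 250 bases upstream of the RefSeq start in build GRCm38.p6, read 5′ to 3′ on the gene's strand. Capitals mark every match, on either strand, to 4 motifs: TCACNCCAC, a core of the sterol regulatory element, CACNCCA, its inner part and so also in each match of the longer one, CCAAT, the NF-Y box (ATTGG on the other strand), and CACGTG, an E-box. Matches of these motifs are letters in the window and not shown binding sites. The positions are chr13:119690101-119690350 (+) for Hmgcs1, chr5:4104698-4104947 (-) for Cyp51, chrX:72918271-72918520 (+) for Nsdhl, chr5:28071162-28071411 (+) for Insig1 and chr11:120824548-120824797 (-) for Fasn.
Hmgcs1: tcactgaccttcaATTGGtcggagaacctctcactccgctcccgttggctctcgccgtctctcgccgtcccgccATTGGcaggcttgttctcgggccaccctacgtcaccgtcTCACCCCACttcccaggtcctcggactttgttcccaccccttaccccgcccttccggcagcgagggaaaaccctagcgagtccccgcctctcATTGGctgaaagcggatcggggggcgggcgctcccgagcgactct
Cyp51: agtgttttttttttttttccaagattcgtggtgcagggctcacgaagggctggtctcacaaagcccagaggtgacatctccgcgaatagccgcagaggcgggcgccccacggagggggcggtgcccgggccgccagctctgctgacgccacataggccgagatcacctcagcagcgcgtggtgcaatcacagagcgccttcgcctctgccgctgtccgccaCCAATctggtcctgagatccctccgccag
Nsdhl: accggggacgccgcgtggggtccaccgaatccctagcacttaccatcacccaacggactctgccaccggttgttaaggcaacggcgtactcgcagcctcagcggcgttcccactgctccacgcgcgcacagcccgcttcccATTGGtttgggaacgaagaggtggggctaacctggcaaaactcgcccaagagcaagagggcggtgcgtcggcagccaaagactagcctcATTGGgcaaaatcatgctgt
Insig1: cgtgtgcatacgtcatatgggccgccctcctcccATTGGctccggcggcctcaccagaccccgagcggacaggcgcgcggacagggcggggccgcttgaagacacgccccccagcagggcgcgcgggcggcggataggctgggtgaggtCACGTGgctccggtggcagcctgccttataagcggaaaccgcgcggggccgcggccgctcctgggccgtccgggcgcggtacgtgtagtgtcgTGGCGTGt
Fasn: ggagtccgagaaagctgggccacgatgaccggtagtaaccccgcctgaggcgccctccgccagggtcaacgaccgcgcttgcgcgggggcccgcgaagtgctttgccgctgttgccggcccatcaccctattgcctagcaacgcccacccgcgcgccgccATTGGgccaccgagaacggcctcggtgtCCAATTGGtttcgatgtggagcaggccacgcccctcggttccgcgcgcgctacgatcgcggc

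The promoter table held 29 of the 36 members, 6 of them with several start windows, and a gene was counted when any of its windows had a match. Without a window were Fdps, Fdft1, Sqle, Stard4, Scd1, Scd2 and Fads1. The 29 members with a window are not the 29 past the filter. They include Acat2 and Idi1, which have no expression value, and the dim Ggps1, Hsd17b7, Insig2 and Me1. CCAAT was found for 15 of 16 sterol enzymes, 4 of 5 regulators and 3 of 8 fatty acid genes, beside 39.0% of the 9344 genes past the filter that had a window. In single windows the shares were 78.9% for sterol enzymes and 34.3% for all genes past the filter. Hmgcs1 has 3 such boxes, and its TCACNCCAC match lies 137 to 129 bases before the start. That match was the only one among the 29 members, beside 1.38% of genes past the filter. The shorter CACNCCA was found for 7 of 29 members (19.0% of genes past the filter) and CACGTG for 5 of 29 (9.69%). All 5 genes shown have a CCAAT box, and Fasn was the only one not lowest on the CBFA2T array. The 5 were picked by their values, and a link between box and direction was not tested.

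In a list of 18 further sterol pathway and SREBP-related genes, 12 had a value and 8 passed the filter. Their median was 0.08 between the CBFA2T and empty vector arrays, with 2 of 8 below 0, and -0.12 between the CBFA2T and sea urchin PRDM14 arrays, with 5 of 8 below 0. Tmem97, a sterol-regulated membrane protein gene of chromosome 11, differed most from the empty vector, by 0.28 with CBFA2T and 0.46 with sea urchin PRDM14 alone. Lbr, the lamin B receptor with sterol reductase activity, differed by -0.28 between the 2 sea urchin arrays. Against the empty vector, 6 of the 8 were above 0 on the CBFA2T array, where most sterol enzymes and 48.4% of all genes were below it. With sea urchin PRDM14 7 were above 0 (median 0.10), and with mouse PRDM14 6 (median 0.12). These comparisons share the empty vector array.

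Of 15 other lipogenesis genes past the filter, 7 were below 0 between the CBFA2T and empty vector arrays (median 0.06), and the glycerol acyltransferase gene Gpam had the largest difference, at 0.32. Of 9 genes of the liver X receptor and of cholesterol efflux, which act when sterols are plentiful, 5 were below 0 (median -0.02). The largest difference there was 0.23, in Mylip, whose product degrades the LDL receptor. None of the genes of these 3 lists was past 1.5-fold in any of the 6 comparisons, beside 0.457% to 0.822% of all genes past the filter. At such shares, lists of this size would hold few or none.

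Feeder cell and housekeeping genes were read beside these results. The summed linear signal of the 17 fibroblast markers was 850 on the CBFA2T array, 926 with sea urchin PRDM14, 970 with mouse PRDM14 and 928 with the empty vector. Without Fn1, the fibronectin gene, the sum was 693 on the CBFA2T array, 693 with sea urchin PRDM14, 697 with mouse PRDM14 and 707 with the empty vector. Fn1 itself read 7.30 on the CBFA2T array and 7.79 with the empty vector. The part of feeder cells in the sterol differences was not tested. The 17 housekeeping genes had a median of -0.03 between the CBFA2T and empty vector arrays, with 9 below 0.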

How the data were processed

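The authors deposited log2 values made with RMA (background correction, equalized array distributions, probe summary), per the submitters' processing notes. No RMA version or genome build is named there, nor which arrays RMA was run on together. Medians of the 4 arrays were 4.54 to 4.55, and a change common to most genes is thereby removed.

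Of 41345 probe sets, 23521 were paired with 1 gene in the platform annotation. All 33 members with a value kept their symbol in RefSeq (GRCm38.p6), which also gave chromosomes and promoter sequences. Each gene was read from its brightest probe set on average. The filter took the highest array, so a gene bright on 1 array passed through it. With 1 array per group no test was made. The counting was tested on simulated data, with shifts larger than any seen in a member. That checks the code and not differences of the size reported here. Members, lists and comparisons were chosen with earlier results of these data known. Every member may be named. Of the other lists, genes past 2-fold or else the largest difference were named. Other genes were named after their values were seen. Desaturases, chain-building enzymes and sterol steps were grouped by function, and these groups were not among the planned lists.

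Counts and medians were repeated with a 1.5-fold threshold, without a filter, with a filter at 5.65 (the percentile 75), a filter on the mean, cyclic loess and the mean of probe sets. Leaving out chromosome 11 was added after the data were seen. Software was limma 3.58.1 in R 4.3.3, and pandas 2.3.3, numpy 2.4.6 and matplotlib 3.10.9 in Python 3.11.15. The planned protein comparison was not run.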

Additional observations from a re-analysis of the deposited data

How the results depend on the processing

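With 1 array per group, no result has a replicate error, and no replicate could be left out. No paired analysis was possible because each group had 1 array. The sterol enzyme median against the empty vector on the CBFA2T array lay between -0.27 and -0.24 in all 6 alternatives run for it. Against sea urchin PRDM14 alone it was -0.077 with no filter and -0.14 in the others. For sterol enzymes, the mean of probe sets and leaving out chromosome 11 could change nothing. Each of these enzymes had 1 probe set, and none lay on chromosome 11. Cyclic loess left Nsdhl at -0.66 and Scd1 at -0.63 against the empty vector, and Cyp51 at -0.67 and Fads1 at -0.59 against sea urchin PRDM14. Shifts of a median over 0.05 are listed next.

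The mean of all probe sets and cyclic loess moved none of the 18 medians by over 0.05. The 2-fold counts were 0 in every alternative. At 1.5-fold, 1 sterol enzyme and 1 fatty acid gene were lower in each of the 3 CBFA2T comparisons, where the count at 2-fold was 0. Among single genes only the 5 differences of Scap moved by over 0.05, with the mean of its probe sets. Scap was the only member with several probe sets, so no other gene could move in that setting. Nor could the medians of sterol enzymes and fatty acid genes.

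The regulator and fatty acid medians rest on 5 and 9 genes and depend on which are kept. For regulators, the median with mouse PRDM14 was 0.035 with no filter and without chromosome 11. It was -0.024 with sea urchin PRDM14 under the stricter filter, a change of sign. On the CBFA2T array it was -0.24 (stricter filter), -0.033 (filter on the mean) and -0.16 (without chromosome 11) against the empty vector. Against mouse PRDM14 it was -0.05 with the main filter, -0.19 under the stricter filter and -0.12 without chromosome 11. For fatty acid genes, the sea urchin PRDM14 median was 0.22 under the stricter filter and -0.046 without chromosome 11. The CBFA2T median was -0.18 against the empty vector and -0.14 against sea urchin PRDM14, under the stricter filter and also without chromosome 11. Against mouse PRDM14 it was -0.06 with the main filter, -0.14 with no filter, -0.20 under the stricter filter and -0.28 without chromosome 11. The sea urchin PRDM14 median against mouse PRDM14 was 0.07 with the main filter and -0.021 without chromosome 11, a change of sign. Each of these settings changes which genes are in the median. Dim genes, such as Cyp51 on the CBFA2T array, lie near background.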

Other observations

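Fatty acid oxidation is the opposite process. Of 15 of its genes past the filter, 7 were below 0 between the CBFA2T and empty vector arrays, with a median of 0.00. Cpt1a, the outer membrane carnitine palmitoyltransferase, read 6.36 on the CBFA2T array, 6.14 with sea urchin PRDM14, 6.90 with mouse PRDM14 and 6.24 with the empty vector. It was thus 0.66 higher with mouse PRDM14 than with the empty vector, and the other 3 arrays lay within 0.22 of one another. Slc25a20, the carnitine carrier of the inner membrane, read 5.76 on the CBFA2T array, 6.12 with sea urchin PRDM14, 5.97 with mouse PRDM14 and 6.33 with the empty vector, so the CBFA2T array was the lowest.

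Mouse PRDM14 minus the empty vector and CBFA2T added to sea urchin PRDM14 are 2 differences that share no array. Their signs were the same for 10 of 15 sterol enzymes, 3 of 5 regulators and 5 of 9 fatty acid genes, beside 52.1% of all genes past the filter. Genes of 1 pathway are not independent of one another. Cyp51 was lower in both, by 0.34 and 0.67, and Insig1, Scd1 and Fads1 were higher in the first and lower in the second.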
